A study of Mus musculus with 6 samples.

Results

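The Cep genes are those whose mouse symbols start with Cep and a number, most of them named for centrosomal proteins. They were taken by that rule from the array annotation after each probe's transcript accession had been matched to a mouse RefSeq symbol. Of the 45616 genes measured, where an accession without a symbol counts as a gene of its own, 39 followed the rule, through 74 of the 56605 probes. A further 2 of the 41 matching RefSeq symbols, Cep112it and Cep112os1, had no probe. Of the 39 genes, 38 were tested, because both arrays of some group were well above the local background. The remaining gene, Cep44, reached that level on 1 no.1 array only.

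The cells were tail tissue fibroblasts, grown out from minced tails of C57BL/6 mice. All 3 groups carried a floxed gene for lysyl hydroxylase 2 (LH2F/F), the collagen-modifying enzyme encoded by Plod2, together with CAG-Cre, a Cre recombinase under a ubiquitous promoter. LH2 cKO_no.1 (no.1) was in tamoxifen (+) medium, and LH2 cKO_no.2 (no.2) in tamoxifen (-) medium, both after 24 h of tamoxifen. The control had the same labelled genotype and was in tamoxifen (-) medium, with no tamoxifen before. Each group had 2 one-colour arrays, and no label says whether a pair stems from separate cultures, so the p-values rest on a spread that may be technical. File names carry 24 h for array 1 and 48 h for array 2 of no.1 and of no.2, where the labels give 24 h. The arrays of these pairs may therefore also differ in time. Tamoxifen and deletion of the gene cannot be told apart in the contrasts against control, because no group lacked Cre.

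The centrosome is built around a pair of centrioles, cylinders of microtubules that are copied once in each cell cycle. Cep proteins start and limit that copying, hold the centrioles together, anchor microtubules, and form the appendages with which the older centriole docks at the membrane and seeds a primary cilium. Fibroblasts in culture use the same centrioles for dividing and, when they stop dividing, for a cilium. The roles given here are known mostly from human and mouse cells.

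Relative signal is the processed signal of a probe over the 75th percentile of its array, and a log2 fold change is a difference of mean log2 relative signals. That percentile was 96.0 and 85.1 in no.1, 55.1 and 56.9 in no.2, and 34.2 and 33.7 in control. The control arrays differed from each other by a robust SD of 0.17 on the log2 scale over all tested genes, against 0.42 for the no.1 pair and 0.48 for the no.2 pair. All 6 arrays lay on 1 slide, with the control arrays in row 1 and the others in row 2, so slide row and tamoxifen cannot be told apart. Plod2 itself had relative signals of 0.331 and 0.201 in no.1, 0.242 and 0.151 in no.2, and 1.23 and 1.04 in control. It fell by 2.13 (adjusted p = 0.00613) in no.1 and by 2.57 (adjusted p = 0.00768) in no.2 on the log2 scale. The sources used here do not give where its probe lies relative to the floxed segment.

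Most Cep genes had higher relative signals in no.1 than in control. In the limma fit over all 23060 tested genes, with Benjamini-Hochberg adjustment and a threshold of 0.05, 22 of the 38 rose and 2 fell. Over all tested genes 21.4% rose and 26.4% fell, so the share of Cep genes that rose, 57.9%, was above that background. The median log2 fold change of the Cep genes was 0.94, against -0.12 for all tested genes. Of the 38, 34 lay above 0, against 46.2% of all tested genes. Among the 38, 30 were higher on both no.1 arrays than on both control arrays. The share of all tested genes that did so was not counted, so that number has no background beside it. Relative to the mean of the controls, the Cep median was 1.05 and 0.83 (log2) in the no.1 pair and 0.59 and 0.59 in the no.2 pair.

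**Figure D1:**
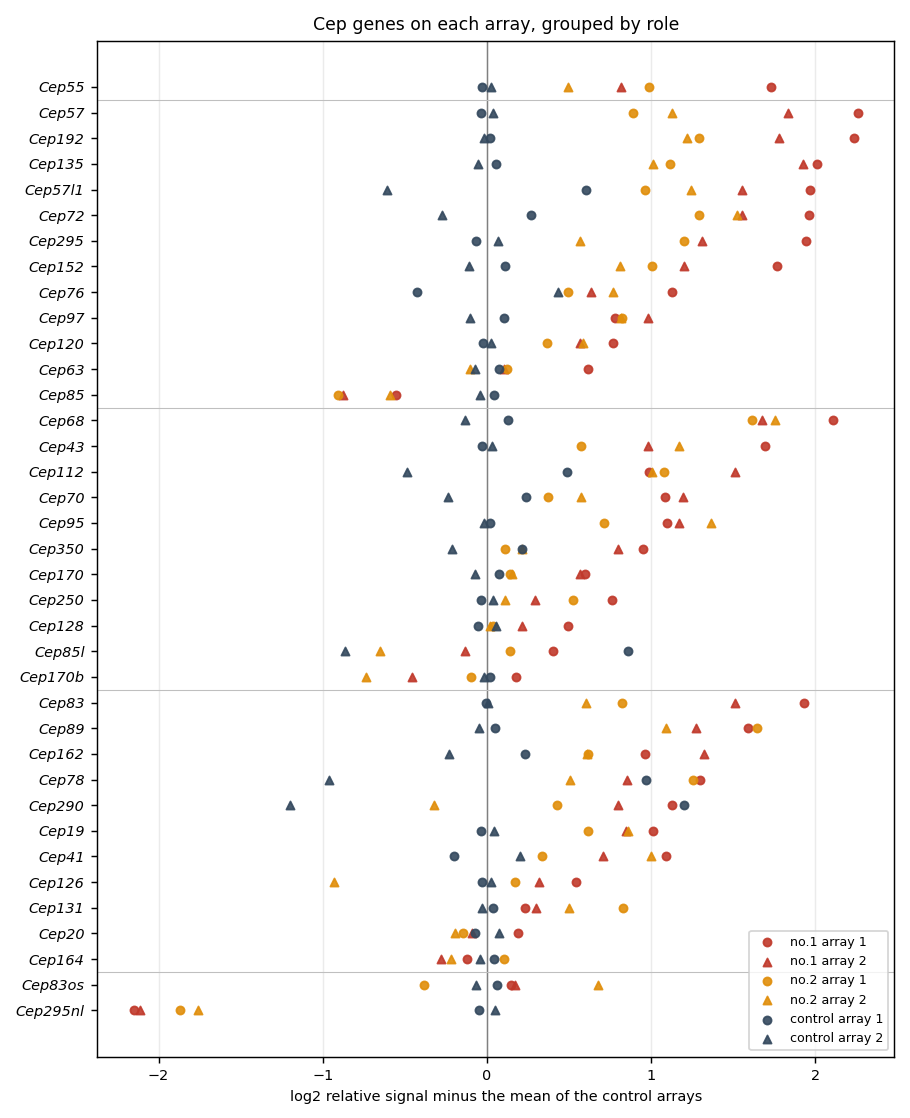
Log2 relative signal of 37 of the 38 tested Cep genes minus the mean of the control arrays (horizontal axis), 1 row a gene, with horizontal lines between groups of genes by role. Each mark is 1 array, red for no.1, orange for no.2 and dark blue for control, and most red marks lie to the right of the control marks, while those of Cep295nl, Cep85 and Cep164 lie to the left.

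In no.2 against control, 11 Cep genes rose and 1 fell, against 12.1% and 16.2% of all tested genes. Their median log2 fold change was 0.66 and that of all tested genes -0.10. The 11 that rose in no.2 had all risen in no.1, where another 11 rose, and all 22 had the larger change in no.1. Both contrasts use the same control arrays, so these lists are not independent.

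The counts changed with the arrays used. With the control pair averaged to 1 sample, 10 Cep genes rose in no.1 and 1 fell, against 9.8% and 11.2% of all genes. In no.2 that fit left 1 higher (Cep68) and 1 lower (Cep295nl), against 2.5% and 2.9%. The 10 were Cep57, Cep57l1, Cep68, Cep72, Cep83, Cep89, Cep135, Cep152, Cep192 and Cep295. Fewer Cep genes rose in both contrasts when either control array was left out, and so did fewer of all tested genes. The same held for no.1 without either no.1 array and for no.2 without either no.2 array. Such fits estimate the spread from fewer arrays, and the reason for the smaller counts was not tested. Without control array 2 the Cep median was 0.84 in no.1 and 0.53 in no.2, against -0.14 and -0.11 for all genes. Without control array 1 these were 1.045 and 0.71, against -0.11 and -0.09. The Cep median was 0.83 in no.1 without no.1 array 1 (all genes -0.10), and 0.59 in no.2 without no.2 array 2 (all genes -0.05). In these fits the lone array is assumed to vary like the other groups. With normexp background correction, Cep57l1, Cep70, Cep72, Cep97, Cep112, Cep135 and Cep152 came out below 0 in no.1, while scaling to spike-ins moved the median of all genes to 1.81 in no.1 and 1.17 in no.2. The share of all calls that were higher was 44.8% in no.1 and 42.8% in no.2, 69.7% and 69.0% when scaled to the median probe, 54.4% and 54.7% with quantile normalization, and 97.8% and 96.5% with spike-ins. Spike-in scaling adds the same amount to the change of every gene, so falls smaller than that shift turn sign with it. With normexp the Cep median was 0.25 in no.1, with 21 of 38 above 0 and 29 above the median of all genes (-0.23), and 0.06 in no.2, with 19 of 38 above 0 and 29 above the median of all genes (-0.12).

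**Figure D2:**
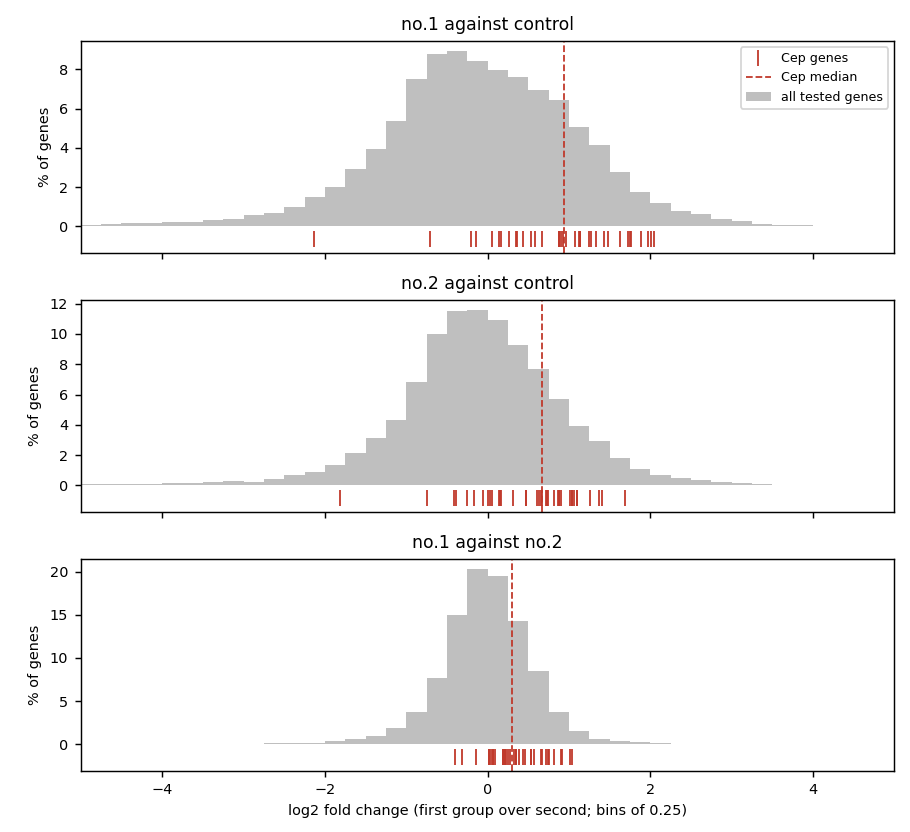
Share of all 23060 tested genes, in percent, by log2 fold change in bins (grey bars), for each of the 3 comparisons, with the Cep genes as red ticks and their median as a dashed line. The Cep median lies to the right of the middle of the grey distribution in each panel, at 0.94, 0.66 and 0.30.

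Genes for copying and assembling centrioles came out higher in most cases. Of 12 tested, 9 rose and 1 fell in no.1 (median log2 fold change 1.55), and 6 rose and none fell in no.2 (median 0.89), against 21.4% higher and 26.4% lower of all tested genes in no.1 and 12.1% and 16.2% in no.2. The 9 and the 6 include Cep72, Cep135 and Cep152, which were not well above background on any control array. Cep57, a pericentriolar protein that binds Cep63, had relative signals of 1.77 and 1.32 in no.1, 0.684 and 0.807 in no.2, and 0.360 and 0.378 in control. The no.1, no.2 and control pairs did not overlap, and Cep57 was 2.05 ± 0.23 (SE, n = 2 each, limma adjusted p = 0.00289) above control in no.1 and 1.01 ± 0.23 (adjusted p = 0.0258) in no.2 on the log2 scale. Its paralogue Cep57l1 was at 0.506 and 0.380 in no.1, 0.252 and 0.306 in no.2, and 0.197 and 0.0849 in control, where 1 of 2 arrays was well above background. Cep57l1 rose by 1.76 ± 0.42 in no.1 (adjusted p = 0.0175), and its change of 1.10 ± 0.42 in no.2 did not pass (adjusted p = 0.0925).

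Cep192 is the pericentriolar scaffold that brings Plk4, the kinase that starts duplication, and Aurora A to the centrosome. Its relative signals were 1.96 and 1.42 in no.1, 1.02 and 0.967 in no.2, and 0.421 and 0.409 in control. The ordering no.1, no.2, control held for every array, with log2 fold changes of 2.01 ± 0.22 (adjusted p = 0.00288) in no.1 and 1.26 ± 0.22 (adjusted p = 0.0146) in no.2. Cep152, the other docking protein of Plk4, was at 0.447 and 0.302 in no.1, 0.265 and 0.231 in no.2, and 0.142 and 0.122 in control. Cep135, a part of the cartwheel at the base of the new centriole, was at 0.348 and 0.328 in no.1, 0.187 and 0.175 in no.2, and 0.0898 and 0.0831 in control. Neither Cep152 nor Cep135 was well above background on either control array, so each fold is a lower bound, set from the lowest signal that was well above background on each control array or the probe's own signal, if higher. By these bounds, which leave out the spread between arrays, Cep135 was at least 2.52-fold higher in no.1 and at least 1.35-fold higher in no.2 (limma adjusted p = 0.00202 and 0.0140). For Cep152 these bounds were at least 2.64-fold and at least 1.78-fold (limma adjusted p = 0.00726 and 0.0451). Cep72, listed with this group although it is known as a protein of the centriolar satellites, was at 0.310 and 0.234 in no.1, 0.195 and 0.228 in no.2, and 0.0961 and 0.0660 in control, where it too was not well above background. By the same kind of bound, Cep72 was at least 2.01-fold higher in no.1 and at least 1.57-fold higher in no.2 (limma adjusted p = 0.00560 and 0.0177). Cep135, Cep152 and Cep72 were tested only because of the groups where they were high. Their adjusted p-values use control signals that were not well above background. With normexp each of these changes lay below 0.

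Cep295, which converts a new centriole into one able to organise a centrosome, had relative signals of 3.05 and 1.97 in no.1, 1.82 and 1.17 in no.2, and 0.759 and 0.830 in control. It rose by 1.63 ± 0.32 in no.1 (adjusted p = 0.00988), and its change of 0.88 ± 0.32 in no.2 did not pass (adjusted p = 0.0810). Cep97, which caps the centriole's far end together with Ccp110, rose by 0.88 ± 0.20 in no.1 (adjusted p = 0.0152) and by 0.82 ± 0.20 in no.2 (adjusted p = 0.0306). Cep120, needed for centrioles to elongate, rose by 0.67 ± 0.20 in no.1 (adjusted p = 0.0359), and its change in no.2 was 0.48 (adjusted p = 0.117). Cep63, the partner of Cep152, did not pass in no.1 at 0.36 (adjusted p = 0.26), nor did Cep76, which restrains extra duplication, at 0.88 (adjusted p = 0.0788). Cep85, which helps Stil reach the centriole, was the gene of this group that fell, though it lay above 0 with spike-in scaling and with the mean of its probes.

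Genes for linking centrioles and anchoring microtubules rose in 7 of 11 cases in no.1 and in 2 of 11 in no.2, against 21.4% and 12.1% of all tested genes, and none fell. Their median log2 fold changes were 0.88 and 0.32. Cep68 belongs to the rootletin-containing linker that ties the centrioles of an interphase cell together. It had relative signals of 1.02 and 0.752 in no.1, 0.723 and 0.795 in no.2, and 0.258 and 0.215 in control. The no.1 and no.2 arrays overlapped with each other and lay above both controls, with log2 fold changes of 1.89 ± 0.23 (adjusted p = 0.00351) in no.1 and 1.69 ± 0.23 (adjusted p = 0.00824) in no.2. Cep250, the linker's anchor on the centriole, did not pass in either at 0.53 and 0.32 (adjusted p = 0.132 and 0.369).

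Cep350 and its partner Cep43 (formerly FOP), which sit near the centriole and anchor microtubules, rose by 0.88 ± 0.22 (adjusted p = 0.0222) and 1.34 ± 0.32 (adjusted p = 0.0184) in no.1. In no.2, Cep350 was at 0.490 and 0.527 relative signal, against 0.528 and 0.391 in control, so the groups overlapped there. Cep170, a subdistal appendage protein, rose by 0.58 ± 0.18 (adjusted p = 0.0427) in no.1. Cep70, Cep95 and Cep112 rose in no.1 by 1.14, 1.13 and 1.25, with Cep112 well above background on 1 of 2 control arrays. Cep95 was also higher in no.2, by 1.04 ± 0.26 (adjusted p = 0.0332). The tested members with the smallest changes in no.1 were Cep20, a satellite protein, at 0.05, Cep85l at 0.13, and Cep170b, the paralogue of Cep170, at -0.14. Cep85l was well above background on 1 of 2 control arrays. Cep20 had relative signals of 14.2 and 11.7 in no.1, 11.3 and 10.9 in no.2, and 11.9 and 13.1 in control, where all 3 pairs lay close together. Cep170b was at 17.8 and 11.5 in no.1, 14.7 and 9.41 in no.2, and 15.9 and 15.5 in control, so its no.1 pair spanned the controls and its no.2 pair lay below them. Cep85l was at 0.127 and 0.0879 in no.1, 0.106 and 0.0613 in no.2, and 0.175 and 0.0530 in control, and its controls spanned the other groups.

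Genes for the distal appendages and the cilium rose in 5 of 12 cases in no.1 and 3 of 12 in no.2, against the same 21.4% and 12.1%, and none fell. Their median log2 fold changes were 0.94 and 0.66. Cep83, the innermost of the distal appendage proteins, had relative signals of 1.71 and 1.28 in no.1, 0.795 and 0.682 in no.2, and 0.447 and 0.452 in control. It rose by 1.72 ± 0.23 in no.1 (adjusted p = 0.00387), and its change of 0.71 ± 0.23 in no.2 did not pass (adjusted p = 0.0608), although both no.2 arrays lay above both controls. Cep89, another distal appendage protein, had relative signals of 10.7 and 8.56 in no.1, 11.1 and 7.54 in no.2, and 3.66 and 3.43 in control. Its 2 tamoxifen groups overlapped and lay above both controls, with log2 fold changes of 1.43 ± 0.26 (adjusted p = 0.00800) and 1.37 ± 0.26 (adjusted p = 0.0167). Cep164, the appendage protein that recruits the kinase Ttbk2, did not pass at -0.20 and -0.06 (adjusted p = 0.449 and 0.840), so the 3 distal appendage members did not change alike.

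Among the ciliary members, Cep19, which recruits Rabl2 to the ciliary base, rose by 0.93 ± 0.20 (adjusted p = 0.0132) in no.1 and by 0.73 ± 0.20 (adjusted p = 0.0408) in no.2. Cep162, a transition zone protein, rose by 1.14 ± 0.25 (adjusted p = 0.0134) in no.1 and did not pass in no.2 at 0.61 (adjusted p = 0.107). Cep290, the gate of the transition zone, was dim, with relative signals of 0.149 and 0.119 in no.1, 0.0918 and 0.0546 in no.2, and 0.157 and 0.0297 in control. Its difference between no.1 and no.2, where it was not well above background, did not pass (0.91 ± 0.75, limma adjusted p = 0.536). The bound on the difference of the means, which leaves out their spread, was 1.54-fold. The control arrays of Cep290 spanned the other groups. Cep41, Cep78, Cep126 and Cep131 did not pass in either contrast.

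Cep55, which gathers the abscission machinery at the midbody in the last step of cell division, had relative signals of 1.28 and 0.677 in no.1, 0.762 and 0.541 in no.2, and 0.378 and 0.393 in control. The no.1 and no.2 arrays overlapped, and both lay above control. Its log2 fold change was 1.27 ± 0.35 (adjusted p = 0.0275) in no.1, and 0.74 ± 0.35 did not pass in no.2 (adjusted p = 0.153).

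**Figure D3:**
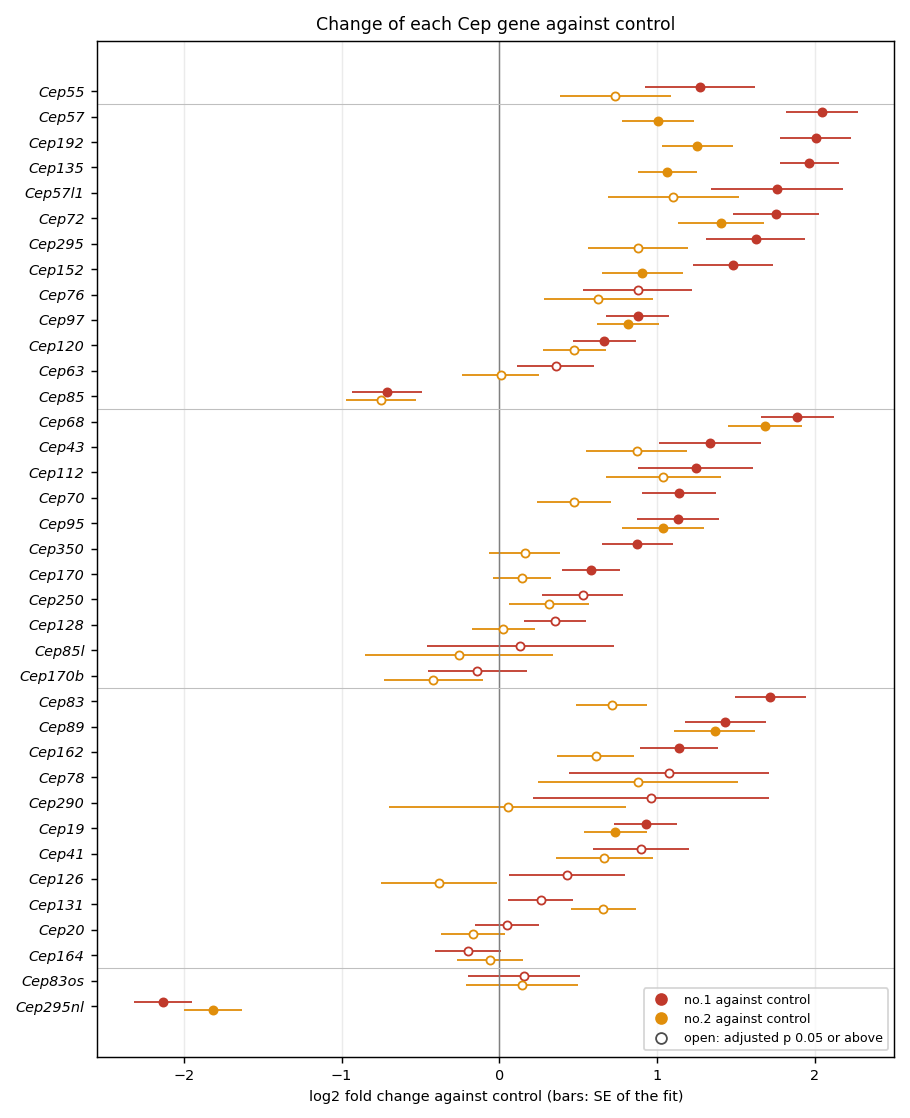
Log2 fold change of 37 of the 38 tested Cep genes against control, with the SE of the fit as bars (horizontal axis), for no.1 in red and no.2 in orange, and open marks where the adjusted p was 0.05 or above. Red marks lie to the right of the orange marks for all 21 genes drawn that rose in no.1, and the marks of Cep135, Cep152 and Cep72 are fitted values whose controls were not well above background.

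Cep295nl, to which no role is assigned here, had relative signals of 0.497 and 0.510 in no.1, 0.604 and 0.653 in no.2, and 2.13 and 2.29 in control. All tamoxifen arrays lay below both controls. It fell by 2.13 ± 0.19 (adjusted p = 0.00170) in no.1 and by 1.81 ± 0.19 (adjusted p = 0.00391) in no.2. Scaled to the spike-ins, these changes were -0.21 (adjusted p = 0.541) and -0.54 (adjusted p = 0.151), past the threshold in neither. In the RefSeq table it lies within the span of Timp2, a secreted inhibitor of metalloproteinases, and it is the one member that lies within another gene. Timp2 had relative signals of 164 and 144 in no.1, 163 and 179 in no.2, and 481 and 461 in control, and fell by 1.62 (adjusted p = 0.00330) and 1.46 (adjusted p = 0.00738). Whether the probe of Cep295nl reads Timp2 transcripts was not tested. Cep83os, an antisense RNA whose promoter window shares 276 of 300 bases with that of Cep83, had relative signals of 0.400 and 0.405 in no.1, 0.276 and 0.576 in no.2, and 0.376 and 0.345 in control. Its no.2 arrays spanned the other groups, and its log2 fold changes, 0.16 in no.1 and 0.15 in no.2, did not pass (adjusted p = 0.727 and 0.770).

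**Figure D4:**
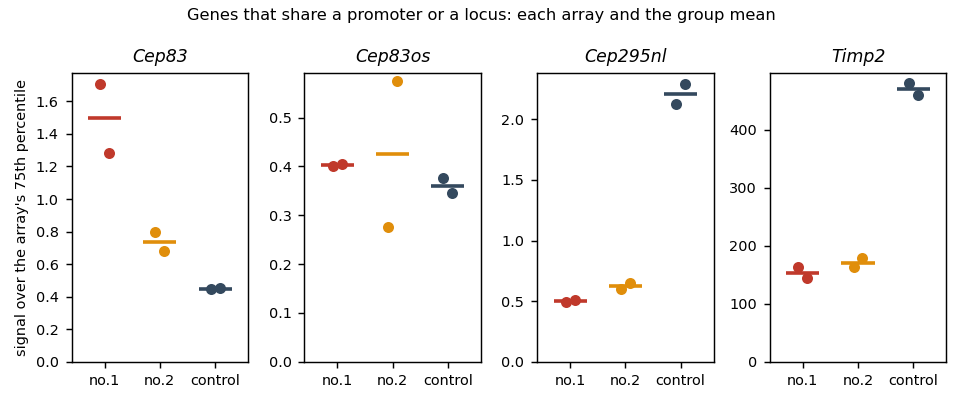
Relative signal (vertical axis, from 0, a scale of its own in each panel) of Cep83, its antisense neighbour Cep83os, Cep295nl and Timp2 on each array (points), with group means as lines. Cep83 is highest in no.1, while Cep295nl and Timp2 are both highest in control.

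Several genes had more than 1 probe, and these did not always move together. Of 74 Cep probes, 68 were tested each on its own, and 33 rose and 3 fell in no.1, against 22% and 24.6% of all 29681 tested probes. In no.2, 13 rose and 2 fell, against 11.9% and 14.7%. Among the 24 genes with at least 2 tested probes, all probes had the same sign in 15 in no.1, 17 in no.2 and 20 between no.1 and no.2. Second probes of Cep57, Cep192, Cep295 and Cep89 gave log2 fold changes of 1.60, 1.79, 1.82 and 1.35 in no.1, each past the threshold. Second tested probes of Cep55, Cep57l1, Cep70, Cep112 and Cep170 also passed. Other tested probes of Cep43, Cep97, Cep135, Cep152, Cep162 and Cep350, which rose by their brightest probe, did not pass. Among these, Cep152 was at 0.82 (adjusted p = 0.253) and Cep350 at -0.07 (adjusted p = 0.91). Cep85 was the gene whose probes were called in opposite directions. Its brighter probe was at 0.232 and 0.186 relative signal in no.1, 0.181 and 0.226 in no.2, and 0.351 and 0.330 in control, and it fell by 0.71 in no.1 (adjusted p = 0.0422). Its dimmer probe was at 0.128 and 0.0766 in no.1, 0.143 and 0.117 in no.2, and 0.0327 and 0.0601 in control, not well above background there, and it rose in no.1 (adjusted p = 0.0485). One of 3 Cep250 probes fell in no.1 by 0.91 (adjusted p = 0.0374) and in no.2 by 1.14 (adjusted p = 0.0306), while the probe used for the gene did not pass.

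**Figure D5:**
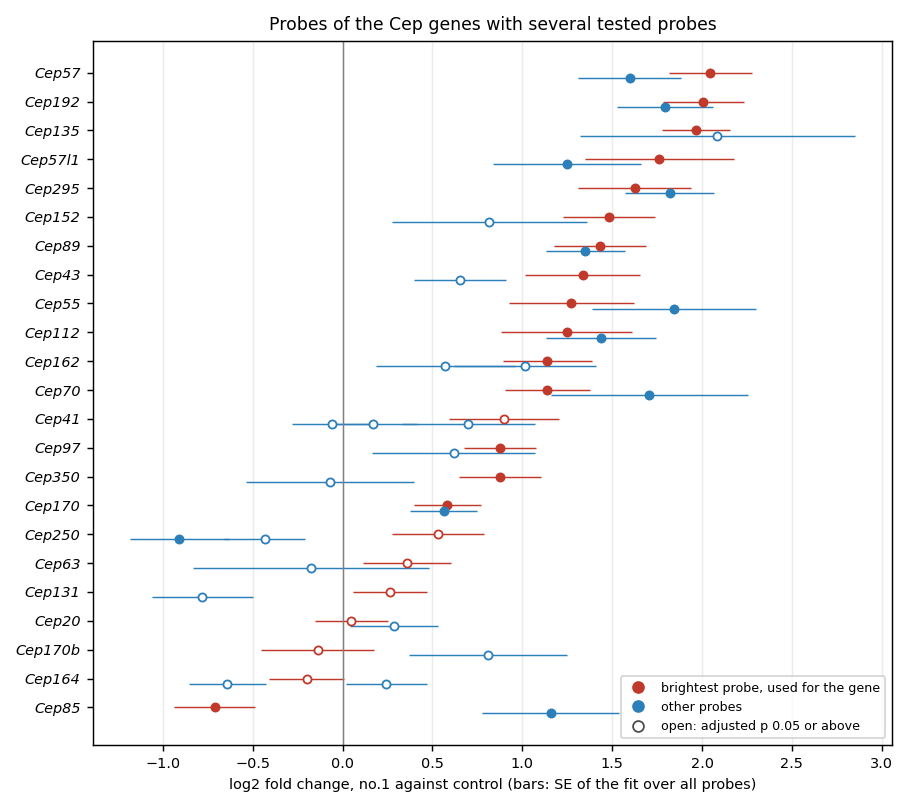
Log2 fold change, no.1 against control, of every tested probe of 23 of the 24 Cep genes with several tested probes, with the SE of the fit over all probes as bars (horizontal axis). Red marks are the brightest probe, which stands for the gene, blue marks are other probes and open marks have an adjusted p of 0.05 or above, with the marks of Cep85 on opposite sides of 0.

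Between no.1 and no.2 no Cep gene passed the test, and most lay above 0. Limma called none (0 of 38, and 0% of all tested genes), 6 had an unadjusted p under 0.05 against 16.6% of all genes, and the smallest adjusted p was 0.282. Of the 38, 35 lay above 0, with a median log2 difference of 0.30 against -0.01 for all genes. Both no.1 arrays were above both no.2 arrays for 16 of them, 42.1%, against 22.5% of all tested genes. Without no.1 array 1, the median was 0.12 and 28 of 38 lay above 0, and with normexp the median was 0.06 and 22 of 38 lay above 0. The lowest p-values belonged to Cep135 (0.90 ± 0.19), Cep57 (1.04 ± 0.23), Cep83 (1.01 ± 0.23), Cep192 (0.75 ± 0.22), Cep350 (0.71 ± 0.22) and Cep70 (0.67 ± 0.23), with an adjusted p of 0.282 for each. Cep89, at 0.07, lay near 0. By role, all 12 genes for copying centrioles and all 11 for linking and anchoring lay above 0, with medians of 0.46 and 0.33, and 10 of 12 for the appendages and cilium with a median of 0.21.

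Other centrosome genes were counted by function, and their counts are to be read against the 21.4% of all tested genes that rose and 26.4% that fell in no.1, and 12.1% and 16.2% in no.2. Of 17 duplication factors, 13 rose and none fell in no.1, with a median of 1.19, and 7 rose in no.2. Sass6, the cartwheel protein, was at 2.69 and 1.83 relative signal in no.1, 1.23 and 0.977 in no.2, and 0.604 and 0.449 in control, and rose by 2.09 in no.1 (adjusted p = 0.00426). Plk4, the duplication kinase, was at 2.34 and 1.45 in no.1, 1.07 and 0.759 in no.2, and 0.278 and 0.0305 in control, with 1 control array well above background. Stil, also well above background on 1 control array only, rose by 2.00 in no.1 (adjusted p = 0.00668). Of 21 pericentriolar and gamma-tubulin genes, 13 rose and 2 fell in no.1, and 4 rose in no.2. The risers there were led by Haus6 (3.24) and Haus3 (2.06), parts of the augmin complex, and Cdk5rap2 (1.58). Among 15 genes of the appendages, linker and rootlet, 9 rose in no.1 and 5 in no.2, led by Cntrl at 2.71, Nek2, a kinase that splits the linker, at 2.58, and Ccdc68 at 2.48.

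Of 11 satellite genes, 4 rose and 1 fell in no.1, with a median of 0.24, and 1 rose in no.2. Of 28 genes for ciliary transport and the transition zone, 6 rose and 5 fell in no.1, with a median of -0.08, and 6 rose and 1 fell in no.2. The share that rose in no.1 was thus near the 21.4% of all tested genes. Ift80 and Ift57, which carry cargo along the cilium, rose by 1.76 and 1.30 in no.1, while B9d2 of the transition zone fell by 1.59.

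Genes of dividing cells rose in most cases. Of 14 mitotic centrosome and spindle pole genes, 10 rose in no.1 and 10 in no.2, with medians of 1.85 and 1.21, led by Aspm (4.11 in no.1, where 1 control array was well above background). Bora, a cofactor of Aurora A, was at least 3.51-fold higher in no.1 by the same kind of bound (limma adjusted p = 0.000994), with neither control array well above background. Among 18 abscission partners of Cep55, 11 rose and 2 fell in no.1 and 10 rose and 2 fell in no.2. The midbody proteins Kif23, Ect2 and Aurkb rose by 4.06, 3.36 and 2.87 in no.1, while Chmp2a and Chmp4b, ESCRT filament proteins, fell by 1.41 and 1.46.

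Proliferation markers moved in the same direction as the Cep genes. Of 18, 17 rose in no.1 and 13 in no.2, and their summed relative signals were 638 and 418 in no.1, 391 and 274 in no.2, and 127 and 132 in control. Mki67, which marks cycling cells, was at 23.2 and 16.3 in no.1, 8.92 and 4.87 in no.2, and 1.70 and 1.50 in control. The part of dividing cells in the Cep changes was not tested, and more cells of a type and more RNA per cell cannot be told apart in these bulk samples. Fibroblast markers were well above background for 8 of 9 genes on every array, with sums of 877 and 917 in no.1, 1130 and 1220 in no.2, and 1370 and 1430 in control. Of the 8 that were tested, 4 fell in no.1 and 3 in no.2, among them Dcn, a matrix proteoglycan, by 3.73 and 2.30. Of the 10 markers of multiciliated cells, which make many centrioles, 2 to 5 were well above background on any array, and Foxj1, their master regulator, on none. Their sums were 25.3 and 27.8 in no.1, 28.9 and 24.7 in no.2, and 38.0 and 34.7 in control, and 3 of 4 tested fell in no.1. Most of each sum was Mcidas, at 24.7 and 27.4 in no.1, 28.2 and 24.3 in no.2, and 36 and 32.9 in control. Keratinocyte, leukocyte and skeletal muscle markers were well above background for 2 to 3 of 6 genes each and endothelial markers for 0 to 2 of 5, and no tested marker of these types rose. In no.1, 1 of 3 tested keratinocyte markers fell, as did 2 of 3 leukocyte and 2 of 3 skeletal muscle markers, and neither of 2 endothelial markers passed. The leukocyte sums were 2.90 and 3.25 in no.1, 5.35 and 2.54 in no.2, and 12.6 and 11.9 in control, and the part of any of these cell types in the Cep changes was not tested.

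The RefSeq promoter windows, 250 bases before to 50 after the gene start, were available for 33 of the 39 members. Those of Cep57, Cep68 and Cep83, chosen by size of change in no.1 among members that were well above background on all 6 arrays, with Cep192 left out by its location, are printed from the GRCm38.p6 table, and those of Cep55 and Cep295 were added after their motif matches were seen. Cep295nl was chosen by the same rule, but no window was available for it, so it is neither printed nor in the motif counts. The CHR element (TTTGAA or TTCGAA), a mark of genes expressed late in the cell cycle, the CCAAT box, and E2F sites (TTTCGCGC, TTTGGCGC, TTTCCCGC or TTTGCCGC) were searched on both strands, and no overlap between motifs was removed. Capitals mark the matches. Cep57 lies at chr9:13827004-13827303 (minus strand), Cep68 at chr11:20249375-20249674 (minus), Cep83 at chr10:94688540-94688839 (plus), Cep55 at chr19:38054734-38055033 (plus) and Cep295 at chr9:15357739-15358038 (minus).
Cep57: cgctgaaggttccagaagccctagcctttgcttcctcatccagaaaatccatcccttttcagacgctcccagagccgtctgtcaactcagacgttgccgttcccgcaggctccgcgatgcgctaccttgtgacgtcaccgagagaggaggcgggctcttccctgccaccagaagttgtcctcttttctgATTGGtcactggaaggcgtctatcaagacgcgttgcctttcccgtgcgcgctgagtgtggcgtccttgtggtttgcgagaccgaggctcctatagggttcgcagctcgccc
Cep68: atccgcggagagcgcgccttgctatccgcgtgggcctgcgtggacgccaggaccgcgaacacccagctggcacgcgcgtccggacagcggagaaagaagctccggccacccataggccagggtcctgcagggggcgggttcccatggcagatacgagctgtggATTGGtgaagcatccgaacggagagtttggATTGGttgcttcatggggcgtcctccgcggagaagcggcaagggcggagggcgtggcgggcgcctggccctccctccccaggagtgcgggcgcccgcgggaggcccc
Cep83: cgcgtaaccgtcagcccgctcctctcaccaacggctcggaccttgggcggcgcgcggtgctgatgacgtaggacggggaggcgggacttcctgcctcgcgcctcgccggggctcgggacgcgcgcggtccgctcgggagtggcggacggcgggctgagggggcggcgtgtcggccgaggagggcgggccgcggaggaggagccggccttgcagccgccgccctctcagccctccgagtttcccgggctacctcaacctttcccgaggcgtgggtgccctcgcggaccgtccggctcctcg
Cep55: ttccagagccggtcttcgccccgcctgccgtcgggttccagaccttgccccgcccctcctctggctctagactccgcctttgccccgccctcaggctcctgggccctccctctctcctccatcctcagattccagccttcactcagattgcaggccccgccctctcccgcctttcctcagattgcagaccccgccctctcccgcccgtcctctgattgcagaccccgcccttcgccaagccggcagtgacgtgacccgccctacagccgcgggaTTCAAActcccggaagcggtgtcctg
Cep295: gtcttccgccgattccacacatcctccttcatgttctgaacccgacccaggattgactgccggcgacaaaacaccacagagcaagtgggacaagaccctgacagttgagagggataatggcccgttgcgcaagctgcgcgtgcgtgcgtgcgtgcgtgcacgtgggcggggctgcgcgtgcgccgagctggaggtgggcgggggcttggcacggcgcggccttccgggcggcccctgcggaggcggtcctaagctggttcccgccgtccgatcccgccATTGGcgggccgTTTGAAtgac
Among the members that rose in no.1, 8 of 18 windows held a CHR (44.4%), against 1 of 14 for the other tested members (7.14%) and 19.4% of 27025 genes. A CCAAT box was in 9 of 18 (50.0%), against 7 of 14 (50.0%) and 37.9%. An E2F site was in 0 of 18, against 2 of 14 (14.3%) and 2.32%. The 8 with a CHR were Cep55, Cep57l1, Cep72, Cep89, Cep112, Cep152, Cep162 and Cep295. Cep57 and Cep68 held CCAAT boxes only, Cep83 held none of these letters, and the counts are descriptions that say nothing of binding.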

How the data were processed

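Total RNA of cultured tail tissue fibroblasts was measured on 6 one-colour (Cy3) Agilent arrays. The deposited files hold intensity values that, per the file headers, Agilent Feature Extraction 12.1.1.1 background-subtracted and detrended within each array, with no scaling between arrays (9.5.1.1 per the submitters' processing notes; build mm9 per the file headers). Each array was divided by the 75th percentile of its 56605 non-control probes and taken to log2. A gene's brightest probe, by mean, stood for it. Of the probes, 32994 (58.3%) received a symbol by accession from RefSeq. Genes well above background on both arrays of a group, 23060 in all, were fitted with limma 3.58.1 in R 4.3.3, with group means over all arrays (3 residual and 3.07 prior degrees of freedom), and p-values were adjusted by Benjamini-Hochberg at 0.05. No probe was saturated, and the number of arrays limits the precision. File names carry 48 h for the second array of no.1 and of no.2, where the labels give 24 h. Deposited files hold median but not mean spot signals, so the normexp alternative used median signals, a choice made after seeing the files. The deposited value table holds intensities that lay, for at least 99.95% of values, within 1% of quantile-normalized processed signals. Members, lists and tests were chosen with earlier results of these data known. Members were named by size of change, smallest change, lowest p and opposed probes, and promoters by size of change among members well above background on all arrays and outside chromosome 18. Companion genes were named as the changed members of largest change. Nothing in the labels pairs samples by replicate number. Values of 1 member are not reported here, though the counts include it.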

Additional observations from a re-analysis of the deposited data

How the results depend on the processing

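Of the 24 Cep genes called in no.1 against control, Cep57, Cep68, Cep89 and Cep192 stayed past the threshold in all 18 settings they were fitted in, and none of the 12 called in no.2 did. Scaled to the spike-ins, 37 and 34 Cep genes rose in no.1 and no.2, against 82% and 64.7% of all tested genes. These counts were 27 and 19 scaled to the median probe (all genes 32.8% and 21%). They were 17 and 7 with the mean of all probes (19.7% and 10.9%), and 17 and 5 with normexp (25.2% and 13.2%). The 5 of 38 in no.2 with normexp were no more than the share of all genes. Those that fell in no.1 and no.2 were 0 and 0 with spike-ins (1.85% and 2.35% of all genes) and 7 and 4 with normexp (44.8% and 21.4%). They were 2 and 2 with no filter on dim probes (43.3% and 29.5%) or with all arrays above background (32% and 20.5%). In no.1, 1 fell with quantile normalization (21.7%), the median probe (14.3%), the value table (21.7%) and the probe mean (26.9%). With the replicate block, 20 rose and 1 fell in no.1 (all genes 20.6% and 25.2%), and 9 rose and 1 fell in no.2 (11.5% and 14.8%). The labels do not say that equal numbers mark a shared source, and file names tie 1 to 24 h and 2 to 48 h in both no.1 and no.2 (correlation of deviations -0.035 and -0.017 between control and no.1 or no.2, and 0.165 between no.1 and no.2). Leaving out 1 array gave 10 to 22 higher and 1 to 2 lower in no.1, 0 to 9 higher and 1 to 2 lower in no.2, and 0 between no.1 and no.2. In each such fit against control where fewer Cep genes rose than with all arrays, fewer of all genes rose too, in the ranges given below. With no filter, 3 of 39 Cep genes were higher in no.1 than in no.2 (Cep57, Cep83 and Cep135) and none was lower. Of all 45616 genes in that fit, 1.14% were higher and 17% lower. It also tested genes that were not well above background on both arrays of any group. The normexp setting added an offset of 50, which shrinks the ratios of dim probes. Without normexp, the percentile signals that the arrays were divided by were 95.95 and 85.06 in no.1, 55.07 and 56.87 in no.2, and 34.16 and 33.69 in control. The part of the offset, together with this scaling, in the turned signs was not tested. With normexp, the sign of a change that passed with or without it turned in no.1 for Cep112 (-0.266), Cep126 (-0.346), Cep128 (-0.345), Cep135 (-0.143), Cep152 (-0.18), Cep164 (0.36), Cep290 (-0.472), Cep57l1 (-0.032), Cep70 (-0.083), Cep72 (-0.184), Cep78 (-0.405), Cep85l (-0.572) and Cep97 (-0.164). It turned in no.2 for Cep135 (-0.177), Cep152 (-0.064), Cep290 (-0.281), Cep72 (-0.076) and Cep97 (-0.045). A further 4 changes in no.1, 11 in no.2 and 15 between no.1 and no.2, which passed in neither fit, also turned sign. With spike-ins it turned in no.1 for Cep164 (1.726), Cep170b (1.789) and Cep85 (1.214), and in no.2 for Cep126 (0.892), Cep164 (1.215), Cep170b (0.856) and Cep20 (1.107); Cep85 (0.526) and Cep85l (1.02) also turned in no.2 without passing in either fit. With the probe mean it turned for Cep85 in no.1 (0.222), and for 3 changes in no.1 and 5 in no.2 that passed in neither fit. Over all genes, 4940 rose and 6081 fell in no.1, against 18920 and 426 with spike-ins, 7564 and 3296 with the median probe, 2260 and 2586 with averaged controls, 5803 and 10340 with normexp, and 5115 and 19757 with no filter. In no.2 these were 2790 and 3728, against 14918 and 542, 4840 and 2176, 577 and 669, 3046 and 4925, and 3030 and 13446. Leaving out 1 array gave 2270 to 5270 higher and 2729 to 6784 lower in no.1, and 598 to 2640 higher and 700 to 4129 lower in no.2. Between no.1 and no.2, none passed, against 520 higher and 7776 lower with no filter, and 2 and 115 without no.1 array 2. Where no cause is stated, the cause was not tested. The slide could not be fitted as a block, because all arrays lay on 1 slide. Dim signals near background limit Cep135, Cep152, Cep72 and Cep290.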
